A study of Saccharomyces cerevisiae with 6 samples.

Results

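Glycogen, the branched glucose polymer that yeast cells store, was followed here through 10 genes for its synthesis, breakdown and control: GSY1, GSY2, GLG1, GLG2, GLC3, GPH1, GDB1, GAC1, PGM1 and PGM2. They were chosen by name, with earlier results of these data known. They were matched by gene symbol to the array, where each had 1 spot. All 10 had a value on at least 2 hybridizations, the condition for inclusion, among 5064 such genes in all. GLC3 and PGM2 lacked a value on replicate 2, and the other 8 were measured on all 3 hybridizations.

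The arrays compared cells of Saccharomyces cerevisiae strain S288C after 2 h in 25 ppm chloroacetaldehyde with cells taken before the exposure. Chloroacetaldehyde is a reactive chlorinated aldehyde that modifies DNA bases, RNA and protein thiols. Cultures grew in rich glucose medium at 25 °C and were treated at an optical density of 1, in exponential growth. Polyadenylated RNA of exposed cells carried Cy5 and RNA of the earlier cells carried Cy3, and each of the 3 independent biological samples gave 1 hybridization, which was read with a strong and a weak laser setting (the high and low scans).

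A value below is a log2 ratio of exposed over before, so a value of 1 is a 2-fold higher and a value of -1 a 2-fold lower transcript level after exposure. The direction is the likely one, because the labels list the exposed cells as channel 1, and the base of 2 is assumed. If the ratio runs the other way, every sign turns. Per the labels the dyes were the same on every array, and growth went on during the 2 h of treatment, so dye, growth time and exposure cannot be told apart. In RNA of a whole culture, fewer cells with a transcript and less of it per cell cannot be told apart either. The arrays give no transcript level, so the labelled strain could not be checked against marker genes.

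As background, glycogen is built on a short primer made by the glycogenin-like proteins Glg1 and Glg2. Glycogen synthase, encoded by GSY1 and GSY2, adds glucose from UDP-glucose, and the branching enzyme Glc3 makes the side chains. The phosphorylase Gph1 and the debranching enzyme Gdb1 take the polymer apart. Yeast growing fast on glucose holds little glycogen and lays it down when glucose runs low and under many stresses, and most of these genes are known targets of the stress factors Msn2 and Msn4.

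The hybridizations differed in sign for these genes. On replicate 1, 9 of 10 glycogen genes were below 0, on replicate 2, 6 of 8, and on replicate 3 all 10 were above 0 (GLG2 as the mean of scans of opposite sign). Among all genes with a value, 53.7% were below 0 on replicate 1, 50.4% were below 0 on replicate 2 and 46.6% were above 0 on replicate 3. The median of the glycogen genes was -0.77 on replicate 1, -1.02 on replicate 2 and 1.38 on replicate 3, beside medians of -0.05, -0.00 and -0.04 over all genes. Across all 3642 genes measured on every hybridization, replicate 3 also had little in common with the others (Pearson's r = -0.05 with replicate 1 and 0.07 with replicate 2, against 0.21 between replicates 1 and 2, a description across genes that are not independent).

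No glycogen gene passed the test over all genes. By limma with Benjamini-Hochberg adjustment over 5064 genes, 0 of 10 had an adjusted p under 0.05 and 0 of 10 an unadjusted p under 0.05. Over all genes 0.0395% were called (1 higher, 1 lower), and 253 genes had an unadjusted p under 0.05. The adjusted p of the glycogen genes ran from 0.977 to 0.992. Their 95% confidence intervals all held 0, and the median interval extended 1.14 from the mean each way, against 0.60 for all genes. Mean changes smaller than that were mostly not detectable in these genes with 3 arrays. The intervals are not adjusted for the number of genes, so changes larger than that could also fail the adjusted test.

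**Figure D1:**
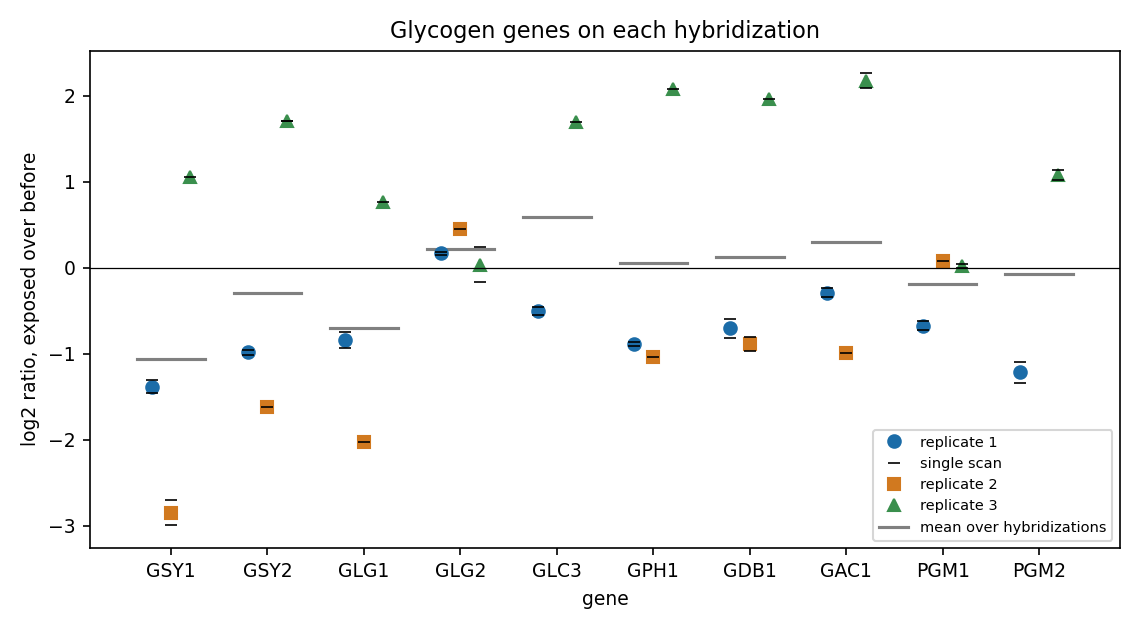
Log2 ratio of exposed over before (vertical axis) for the 10 glycogen genes (horizontal axis), with a symbol for each hybridization, short black dashes for its single scans and a grey line for the mean. For 8 of the genes replicate 3 lies above 0.7 and every other measured hybridization below 0, while all values of GLG2 and PGM1 lie between -0.68 and 0.45.

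Both glycogen synthase genes were below 0 on replicates 1 and 2 and above 0 on replicate 3. GSY1 (YFR015C) had -1.38, -2.85 and 1.05 on replicates 1, 2 and 3. Its transcript was thus 2.61-fold and 7.21-fold lower after exposure on replicates 1 and 2, and 2.07-fold higher on replicate 3. On replicate 2 its ratio was below that of all but 0.10% of genes. The mean was -1.06 ± 1.97 (SD, n = 3), with a 95% interval from -2.39 to 0.27 and an adjusted p of 0.977 (limma).

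GSY2 (YLR258W), which encodes the predominant synthase, had -0.98, -1.62 and 1.71. It was lower after exposure on replicates 1 and 2 and 3.26-fold higher on replicate 3, where its ratio was above that of 99.44% of genes. Its mean of -0.30 ± 1.76 (SD, n = 3; adjusted p = 0.977, limma) combined values of opposite sign. Among the 3642 genes with 3 values, 6 had an SD at least as large as that of GSY1 and 14 at least as large as that of GSY2, themselves included.

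The primer genes had opposite signs on replicates 1 and 2. GLG1 (YKR058W) had -0.84, -2.03 and 0.77, with a mean of -0.70 ± 1.40 (SD, n = 3; adjusted p = 0.977, limma). It was 4.08-fold lower after exposure on replicate 2 and 1.70-fold higher on replicate 3. GLG2 (YJL137C) had 0.17, 0.45 and 0.04, with a mean of 0.22 ± 0.21 (SD, n = 3; adjusted p = 0.977, limma). It was the member above 0 on every hybridization, although on replicate 3 its high scan gave -0.16 and its low scan 0.24, and 20.3% of genes with 3 values had a smaller SD. Of the 8 members with 3 values, GLG2 was the 1 with the same sign on all of them, against 27.5% of all such genes.

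The branching enzyme gene GLC3 (YEL011W) had -0.50 on replicate 1 and 1.69 on replicate 3. It was 3.23-fold higher after exposure on replicate 3, above 99.40% of genes, and lower on replicate 1, where 17.1% of genes had a lower ratio. The mean of these values was 0.59 ± 1.55 (SD, n = 2; adjusted p = 0.977, limma).

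Among the members, the breakdown genes GPH1 and GDB1 had nearly equal values. Another breakdown gene, SGA1, was not a member and had 0.27 on replicate 1 and 0.77 on replicate 3. GPH1 (YPR160W), which releases glucose 1-phosphate from glycogen, had -0.89, -1.04 and 2.08 and a mean of 0.05 ± 1.76 (SD, n = 3; adjusted p = 0.992, limma). GDB1 (YPR184W), which removes the branches that stop the phosphorylase, had -0.70, -0.89 and 1.97 and a mean of 0.13 ± 1.60 (SD, n = 3; adjusted p = 0.986, limma). On replicate 3 GPH1 was 4.23-fold and GDB1 3.91-fold higher after exposure, each above at least 99.6% of genes. Both of these values came from the high scan alone. On replicates 1 and 2 both were lower, by 1.63-fold to 2.06-fold.

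GAC1 (YOR178C) encodes the regulatory subunit that directs the phosphatase Glc7 to glycogen synthase, which activates the synthase. It had -0.29, -0.99 and 2.17 on replicates 1, 2 and 3. Its ratio on replicate 3, 4.51-fold higher after exposure, was the highest of any glycogen gene on any hybridization, and that on replicate 1 was moderate, with 31.8% of genes lower. The mean was 0.30 ± 1.66 (SD, n = 3; adjusted p = 0.977, limma).

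Phosphoglucomutases interconvert glucose 6-phosphate and glucose 1-phosphate, the step that joins glycogen to glycolysis, and PGM2 encodes the major form. PGM2 (YMR105C) had -1.22 on replicate 1 and 1.08 on replicate 3, a 2.32-fold lower and a 2.11-fold higher transcript after exposure. Its mean was -0.07 ± 1.62 (SD, n = 2; adjusted p = 0.986, limma). The minor form PGM1 (YKL127W) had -0.68, 0.08 and 0.02, with a mean of -0.19 ± 0.42 (SD, n = 3; adjusted p = 0.977, limma). PGM1 was lower on replicate 1 and close to 0 on the others.

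Counted over the group, 7 of 10 glycogen genes were more than 2-fold higher after exposure on replicate 3, where 3.01% of all genes were. On replicate 2, 4 of 8 were more than 2-fold lower, where 3.95% of all genes were, and on replicate 1, 2 of 10, where 2.29% of all genes were. None was more than 2-fold higher on replicate 1 or 2, where 3.48% and 3.71% of all genes were, or more than 2-fold lower on replicate 3, where 1.28% were. Of the 8 genes with 3 values, 6 were below 0 on replicates 1 and 2 and above 0 on replicate 3, an order that 15.7% of all such genes had. GLC3 and PGM2, without a value on replicate 2, were also below 0 on replicate 1 and above 0 on replicate 3, as were 26.9% of genes measured on both. These counts describe a pattern seen in the values, in genes chosen with earlier results known, and carry no test.

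For 6 members, differences between genes varied less over the hybridizations than the genes themselves did. The 6 genes GSY1, GSY2, GLG1, GPH1, GDB1 and GAC1, grouped after their values were seen, had SDs from 1.40 to 1.97 over the hybridizations, against a median of 0.38 for all genes with 3 values. All 6 exceeded the 95th percentile of that SD (0.94), and GLG2 and PGM1 did not, where 5.02% of all genes did. The difference between any pair of these 6 had an SD of 0.12 to 0.71 (median 0.43 over 15 pairs). This SD leaves out a constant offset between the genes of a pair, so a small SD does not mean equal ratios. GSY1 and GAC1, with an SD of 0.43, had means of -1.06 and 0.30. The same SD was not computed for pairs of other genes. The smallest SDs of a difference were 0.12 for GSY2 with GAC1 and 0.16 for GPH1 with GDB1. In Euclidean distance over the 3 hybridizations, GPH1 and GDB1 were 0.27 apart and GSY2 and GAC1 1.04. Differences of GLG2 or PGM1 from these 6 genes had SDs of 1.46 to 2.17, which in part restates the large SDs of the 6 genes themselves. GLG2 and PGM1 differed from each other with an SD of 0.42.

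**Figure D2:**
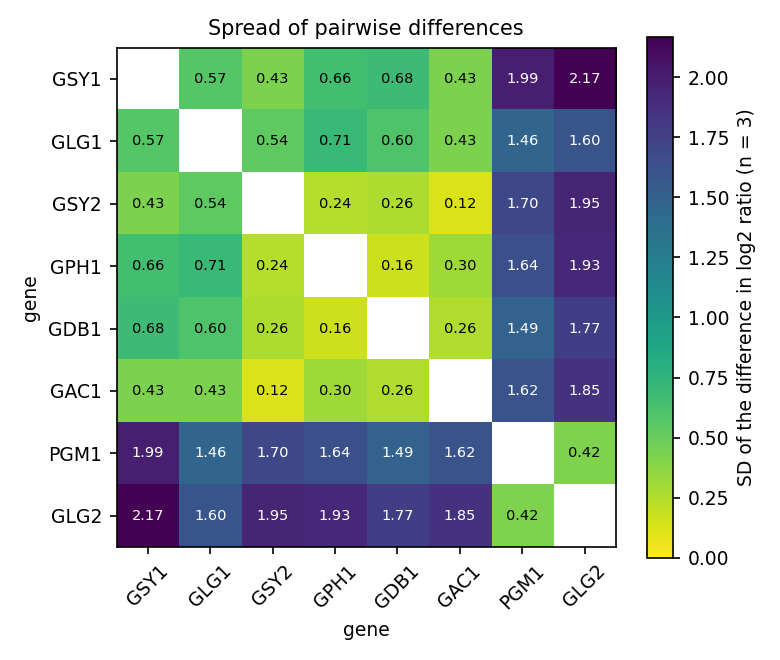
SD over the 3 hybridizations of the difference in log2 ratio between each pair of glycogen genes measured on all of them, both axes being genes and the colour the SD. The 6 genes from GSY1 to GAC1 form a block with SDs of at most 0.71, and PGM1 and GLG2 stand apart from that block at 1.46 or more.

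Duplicated genes of the same enzyme were compared within each hybridization, where anything that shifts a whole array drops out. GSY2 exceeded GSY1 by 0.40, 1.23 and 0.65 on replicates 1, 2 and 3, a mean of 0.76 ± 0.43 (SD, n = 3). The difference was above 0 on 3 of 3 hybridizations and larger than its spread, but an exact sign-flip permutation test (two-sided) gave p = 0.25, the smallest that 3 hybridizations allow. GLG2 minus GLG1 was 1.01, 2.48 and -0.73, a mean of 0.92 ± 1.61 (SD, n = 3; exact sign-flip p = 0.5), and the sign turned on replicate 3. Its mean was 0.14 without replicate 2 and 1.74 without replicate 3. PGM2 minus PGM1 was -0.54 and 1.05 on replicates 1 and 3, a mean of 0.26 ± 1.13 (SD, n = 2), with opposite signs. A cDNA spot of a duplicated gene can also bind RNA of its copy, and how far it did so was not tested.

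The phosphorylase gene GPH1 exceeded the synthase gene GSY2 by 0.10, 0.57 and 0.37, a mean of 0.35 ± 0.24 (SD, n = 3; exact sign-flip permutation p = 0.25, two-sided). The difference had the same sign on every hybridization, including replicate 3, on which both transcripts were higher after exposure. By group, the median of the synthase, primer and branching genes was -0.84, -1.82 and 1.05, and that of the breakdown genes GPH1 and GDB1 was -0.80, -0.97 and 2.02. Of the 4 differences compared, none could go below p = 0.25 in the exact sign-flip test.

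**Figure D3:**
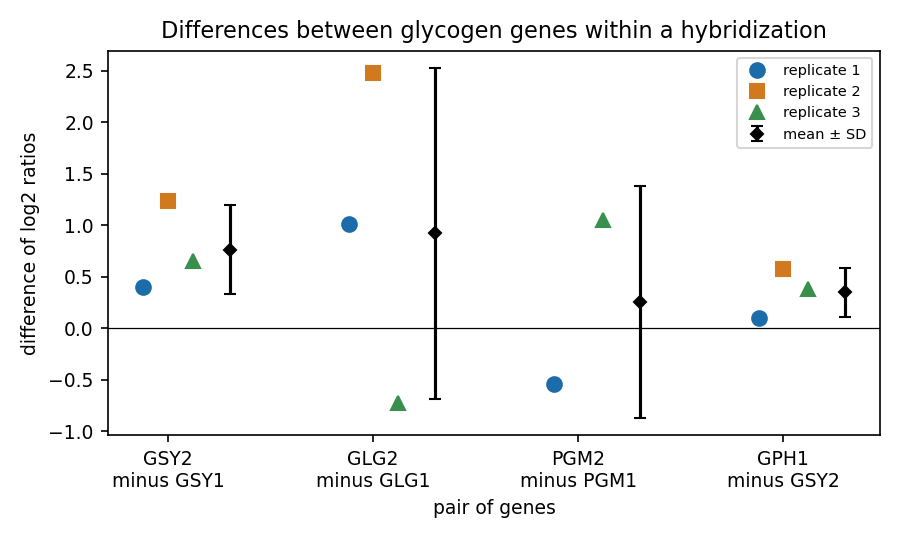
Difference of log2 ratios within each hybridization (vertical axis) for 4 pairs of glycogen genes (horizontal axis), with a symbol per hybridization and the mean ± SD as a diamond with bars (n = 3, and n = 2 for PGM2 minus PGM1). GSY2 minus GSY1 and GPH1 minus GSY2 lie above 0 on all 3 hybridizations, and the other 2 pairs change sign.

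Genes listed as glycogen regulators had medians nearer to 0. Of 18 listed genes, among them subunits of Glc7 phosphatase, Pho85 cyclins, Snf1 kinase and protein kinase A, 16 had a value on at least 2 hybridizations. The list also held SGA1, the gene of a glucoamylase that breaks down glycogen itself and is no regulator. SGA1 had 0.27 on replicate 1 and 0.77 on replicate 3. Limma called 0 of the 16. Of all 5064 genes, 253 had an unadjusted p under 0.05, and 2 of the 16 had one. They were TPK2, a protein kinase A catalytic subunit gene, with -1.03, -1.25 and -0.01 (mean -0.76 ± 0.66, SD, n = 3; adjusted p = 0.908, limma), and PCL6, a Pho85 cyclin gene, with -0.65, -0.44 and -0.48 (mean -0.52 ± 0.11, SD, n = 3; adjusted p = 0.953, limma). Regulator medians were -0.18, -0.44 and 0.01 on replicates 1, 2 and 3. Of the 11 with 3 values, 4 were below 0 on replicates 1 and 2 and above 0 on replicate 3, against 15.7% of all such genes.

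Genes that supply UDP-glucose and hexose phosphates had medians of -0.41, 0.03 and 0.26 over 9 genes. Limma called 0 of them, and 0 had an unadjusted p under 0.05, beside 253 of all 5064 genes. UGP1, which encodes the enzyme that makes UDP-glucose, had -0.63, -1.27 and 0.35 (mean -0.52 ± 0.82, SD, n = 3; adjusted p = 0.977, limma). The hexokinase gene HXK1 had -0.33, 0.19 and 2.13 (mean 0.66 ± 1.30, SD, n = 3; adjusted p = 0.977, limma). UGP1 had the signs of the glycogen synthase genes on all 3 hybridizations, and HXK1 was above 0 on replicates 2 and 3.

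Trehalose is the other storage sugar of yeast. Its 7 genes had medians of -0.59, -0.71 and 0.40. Limma called 0 of them and gave 1 an unadjusted p under 0.05, beside 253 of all 5064 genes. Of the 7, 3 were below 0 on replicates 1 and 2 and above 0 on replicate 3, against 15.7% of all genes with 3 values. TPS3, a subunit gene of the trehalose synthase complex, had -1.73, -0.50 and -0.15 (mean -0.80 ± 0.83, SD, n = 3; adjusted p = 0.949, limma). TPS1, the gene of its first catalytic subunit, had -0.41, -1.21 and -0.13 (mean -0.58 ± 0.56, SD, n = 3; adjusted p = 0.953, limma). Both were thus slightly below 0 on replicate 3 as well, where 4 of 7 trehalose genes and every glycogen gene were above 0. They were named by smallest p, which favours genes with the same sign on all hybridizations.

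General stress genes followed the hybridizations in the same order, with medians of -0.35, -0.91 and 1.10 over 20 genes. Limma called 0 of them and gave 4 an unadjusted p under 0.05, beside 253 of all 5064 genes. Of the 15 with 3 values, 8 were below 0 on replicates 1 and 2 and above 0 on replicate 3, against 15.7% of all such genes. YGP1, which encodes a cell wall glycoprotein, and the small heat shock protein gene HSP12 were above 0 on every hybridization. Among the glycogen genes only GLG2 was. Both stress genes were named by smallest p, which favours genes with the same sign on all hybridizations. Of the 15 stress genes with 3 values, 4 had the same sign on all, against 27.5% of all such genes. YGP1 had 1.01, 1.95 and 1.84 (mean 1.60 ± 0.51, SD, n = 3; adjusted p = 0.18, limma), and HSP12 had 1.06, 1.40 and 2.59 (mean 1.69 ± 0.80, SD, n = 3; adjusted p = 0.21, limma). Differences between these lists and the glycogen genes were not tested.

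**Figure D4:**
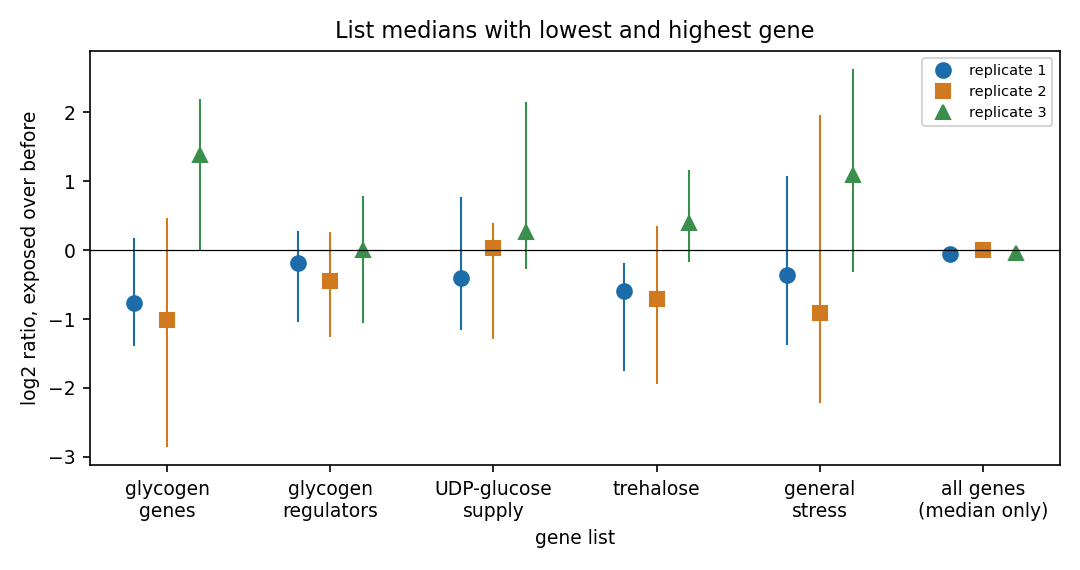
Median log2 ratio of exposed over before (symbols) for each gene list on each hybridization, with a line from its lowest to its highest gene, and the median alone for all genes. The glycogen genes have medians of -0.77, -1.02 and 1.38 on replicates 1, 2 and 3, and the general stress genes follow with -0.35, -0.91 and 1.10.

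Genes with the most similar ratios were found by Euclidean distance over the 3 hybridizations, among 3634 genes outside the group. Nearest to GSY2 were the cytosolic catalase gene CTT1 (distance 0.58), with -1.37, -1.31 and 1.39, then USV1 (0.74) and GID11 (0.81). Within the group GPH1 was at 0.69 from GSY2 and GDB1 at 0.82, which would rank 2 and 4 among the outside genes. Nearest to GPH1 outside the group were the hexose transporter gene HXT4 (0.69), with -0.37, -0.82 and 1.69, then TFS1 (0.72) and GID11 (0.74). Inside the group GDB1 (0.27) and GAC1 (0.61) were nearer to GPH1 than any of the 3634. The other members with 3 values were farther from GPH1. GSY2 would rank 2, GLG1 108, GSY1 582, PGM1 1123 and GLG2 2376. GSY1 lay at 1.45 from GSY2, which would rank 65, and GLG2 at 2.89, which would rank 2631. From GSY2, GLG1 would rank 17, GAC1 18 and PGM1 1188. PGM2 lacked a value on replicate 2 and was not searched.

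Neighbours of the glycogen genes on the chromosome, and groups of spots with close numbers, had medians nearer to 0. Of the 20 genes next to a glycogen gene on the chromosome, 16 were measured, with medians of -0.13, -0.06 and 0.11 on replicates 1, 2 and 3, and 0 of them was more than 2-fold changed on any hybridization. Spots with numbers close to those of the glycogen genes, in groups of 96, had medians between -0.25 and 0.25 on every hybridization. A median over so many normalized spots says little about a single spot. Whether close numbers mean close places on the array was not checked. High and low scans of a hybridization differed by a median of 0.12 and at most 0.40 (GLG2 on replicate 3) in the 17 cases with both, out of 28 values. Another 10 values came from the high scan alone and 1, GLG1 on replicate 3, from the low scan alone. Those 10 were GSY1, GLC3, GPH1 and GDB1 on replicate 3, and GSY2, GLG1, GLG2, GPH1, GAC1 and PGM1 on replicate 2.

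Without replicate 3, 7 of the 8 genes that could be fitted had a mean below 0. GSY1 then had a mean of -2.12 (adjusted p = 0.0752, limma, n = 2), GLG1 -1.44 (adjusted p = 0.191), GSY2 -1.30 (adjusted p = 0.191), GPH1 -0.97 (adjusted p = 0.322), GDB1 -0.80 (adjusted p = 0.49), GAC1 -0.64 (adjusted p = 0.61) and PGM1 -0.30 (adjusted p = 0.845), while GLG2 had 0.31 (adjusted p = 0.822). Of these 8 genes 0 passed and 5, all below 0, had an unadjusted p under 0.05. Of the 3848 genes fitted, 8.63% had such a p and 4.99% had it with a mean below 0. Because replicate 3 had the opposite sign for most of these genes, leaving it out was bound to bring their values together. The lower p-values follow from that choice, so these counts only describe the values. Without replicate 2 the mean of GSY1 was -0.17 and that of GLG1 -0.04 (adjusted p = 0.998 each, limma). The median of the group was -0.88 without replicate 3, against 0.15 without replicate 1, 0.23 without replicate 2 and -0.01 with all hybridizations.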

How the data were processed

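The authors deposited a log ratio per spot, read here as log2, for 6 scans of 3 cDNA arrays with 2 channels. Per the labels, they applied LOWESS normalization to the spots flagged 0. Not given in the sources used here are log base, direction, background correction, scanner and signal intensities, nor whether each hybridization had its own RNA from before exposure. Signal over background is therefore unknown. Spots with a value numbered 4121 to 6104 at high and 1737 to 3871 at low power. Of 6912 spots, 5513 carry a gene name in the platform annotation, and 5508 received their current symbol through the R64 gene table (5365 genes).

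High and low scans of a hybridization were averaged, then spots of a gene. Genes on at least 2 hybridizations (5064) were fitted together, and the mean was tested against 0 (limma 3.58.1, R 4.3.3, eBayes, two-sided, Benjamini-Hochberg, threshold 0.05). The procedure was tested on simulated data. The number of arrays limits precision. Members, lists and naming rules (every member, the 2 genes of each other list with the smallest p among those on all 3 hybridizations, the 3 nearest genes by distance) were chosen with earlier results of these data known. A planned search of promoters for a stress motif was not analysed here, since no sequences were used. Alternatives were either scan alone, genes on all 3 hybridizations, centring, scaling, median of spots, position, robust moderation and leaving out each replicate.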

Additional observations from a re-analysis of the deposited data

How the results depend on the processing

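Under all 11 alternatives 0 glycogen genes passed (limma), with adjusted p down to 0.0752 (GSY1 without replicate 3). Of 76 member means under the 8 settings that kept all replicates, 71 kept their sign. With the low-power scan alone, which leaves 8 members with 2 values each, the mean of GSY2 was 0.35, that of GLG1 0.0084 and that of GDB1 -0.81. PGM2 had 0.0217 with the high-power scan alone and 0.0629 after scaling. Means with a replicate left out ran from -2.12 to -0.17 for GSY1, from -1.44 to -0.04 for GLG1, from -1.30 to 0.36 for GSY2, from -0.97 to 0.60 for GPH1, from -0.80 to 0.63 for GDB1, from -0.64 to 0.94 for GAC1 and from -0.33 to 0.0522 for PGM1, and the median of the group from -0.88 to 0.23. GLC3 and PGM2 could not be fitted without replicates 1 or 3. The cause of these shifts was not tested, beyond the values of replicate 3 given above. Over all genes 2 were called, 1 with the high-power scan alone, 0 with the low-power scan alone, 1 after centring, 1 after removing position medians, and 0 to 3 with a replicate left out. With a replicate left out, GSY2 minus GSY1 ran from 0.53 to 0.94, GPH1 minus GSY2 from 0.24 to 0.47 and GLG2 minus GLG1 from 0.14 to 1.74. GSY2 minus GSY1 was 0.44 with the low-power scan alone, and GLG2 minus GLG1 was 1.80 with the high-power scan alone. List medians with a replicate left out ran from -0.33 to -0.10 for regulators, from -0.25 to -0.00 for UDP-glucose supply, from -0.85 to -0.10 for trehalose and from -0.55 to 0.38 for general stress genes. Each ratio already sets exposed against earlier cells on the same array. No pairing of samples between groups was possible, because there is a single group.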

Other observations

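Some listed genes outside the glycogen group, named after their values were seen, had the signs of 6 of the 8 glycogen genes with 3 values. These signs, below 0 on replicates 1 and 2 and above 0 on replicate 3, were held by 15.7% of all genes with 3 values. GIP2, which encodes another regulatory subunit of Glc7 phosphatase, had -0.26, -1.15 and 0.65 on replicates 1, 2 and 3. The glucokinase gene GLK1 had -1.15, -1.26 and 0.76, and the acid trehalase gene ATH1 had -0.99, -0.71 and 1.15. GAD1, which encodes glutamate decarboxylase, had -0.71, -0.96 and 1.14, and SDP1, which encodes a stress-inducible phosphatase, had -1.19, -1.76 and 0.77. The heat shock protein gene HSP42 had -0.82, -2.20 and -0.30, so it stayed below 0 on replicate 3. None of these genes passed the test (limma, adjusted p from 0.781 for HSP42 to 0.977).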
